A study of Mus musculus with 37 samples.

Results

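Small nucleolar RNAs (snoRNAs) are short non-coding RNAs that guide chemical modification of ribosomal RNA and small nuclear RNA in the nucleolus. RNAs with C and D boxes, with symbols starting *Snord*, direct methylation of the ribose, and RNAs with H and ACA boxes, with symbols starting *Snora*, direct the change of uridine to pseudouridine. Most mammalian snoRNAs are cut from introns of host genes, many of which encode ribosomal proteins or translation factors, or are non-coding RNAs known mainly for the snoRNAs they carry. The mature RNAs have no poly(A) tail, and each is held in a particle with core proteins, fibrillarin and NOP56 among those of the C/D class and dyskerin and GAR1 among those of the H/ACA class. The members were all probe sets of the array whose symbol starts with *Snord* or *Snora*, which gave 137 of 41155 probe sets and 100 different symbols. Of these probe sets, 96 are C/D (64 symbols) and 41 are H/ACA (36 symbols).

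Brown adipose tissue was taken from males of 35 BXD strains and of both parental strains, C57BL/6J and DBA/2J, all at 29 weeks of age, on a chow diet and after an overnight fast. Each BXD strain is a recombinant inbred line that carries a fixed mixture of the alleles of both. Total RNA of about 5 mice was pooled per strain after column cleanup and hybridised to 1 Affymetrix MoGene 2.0 array, so there is no replicate within a strain and the spread between strains contains the error of the arrays. The values are scores: the values of each array had been brought to mean 8 and SD 2, and the log base is not given in the sources used here, so differences are given in rescaled units and not as folds. Of the brown fat markers, 8 of 8 had a mean above background. *Ucp1*, the uncoupling protein that makes brown fat produce heat, lay between 14.82 and 15.69 units, and *Cidea*, a lipid droplet protein, had a mean of 14.73.

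The 137 probe sets held fewer independent measurements than their number implies. Only 105 different profiles of values were present. The 31 probe sets of *Snord116*, a repeated C/D snoRNA of the imprinted Prader-Willi region, carried just 2 profiles, one repeated 16 times and the other 15 times. *Snora19*, *Snora21* and *Snora28* each had a pair of probe sets with the same values. Members with repeated or near-identical copies in the genome are therefore uncertain as to which copy was measured, and counts are given below for the 137 probe sets and for the 105 profiles.

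The snoRNAs were bright against the background. The olfactory receptors, genes of the nose with no expected role in fat, had 1128 probe sets. The median of their means was 6.00 units, and the limit used for background was the 95th percentile, 7.94 units. Of the 137 snoRNA probe sets, 100 (73.0%) had a mean above that limit, as did 47.2% of all probe sets. Among the 105 profiles the number was 69 (65.7%). The median of the means was 10.03 units over the 137 probe sets, 8.96 over the 105 profiles and 7.81 over all probe sets.

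The classes differed in how many members were above background. Of the H/ACA profiles, 33 of 38 (86.8%) passed the limit, and of the C/D profiles 36 of 67 (53.7%). For probe sets the numbers were 35 of 41 (85.4%) and 65 of 96 (67.7%), the latter with all 31 of *Snord116*. In all, 91 probe sets were above the limit in each of the 35 BXD strains, 26 in no strain and 20 in some strains only. For the members below the limit, signal and background cannot be told apart in level, although their values could still move together between strains.

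Among the brightest members, *Snora52*, an H/ACA snoRNA annotated inside the ribosomal protein gene *Rplp2*, ran from 13.68 in BXD87 through a median of 13.93 to 14.41 in BXD48. This is a narrow range, and *Snora52* was far above background on each array. *Snord57*, a C/D snoRNA inside *Nop56*, which itself encodes a core protein of C/D particles, ran from 12.16 in BXD95 through a median of 13.64 to 14.33 in BXD48. *Snora22* ran from 12.54 in BXD95 through a median of 13.91 to 14.12 in BXD92. BXD95 thus gave the lowest value of both *Snord57* and *Snora22*. *Snora33*, inside *Rps12*, *Snord82*, inside the nucleolin gene *Ncl*, *Snord32a*, inside *Rpl13a*, *Snora23*, inside the nuclear import gene *Ipo7*, *Snord104*, inside a gene without a probe set, and both probe sets of *Snora17* were the other members of the 10 with the highest means, and these means lay between 12.09 and 13.09 units.

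The members also varied more between strains than most probe sets. Their SD over the 35 strains had a median of 0.38 units over the 137 probe sets and 0.33 over the 105 profiles. It was 0.21 over all probe sets and 0.24 over the olfactory receptors. An SD above 0.43 units, the 90th percentile of all SDs, was found for 61 of 137 (44.5%), beside 10% of all probe sets. That count includes all 31 *Snord116* probe sets, and among the 105 profiles it was 31 (29.5%). *Snord14e*, inside the chaperone gene *Hspa8*, ran from 9.70 in BXD84 through a median of 10.73 to 12.26 in BXD51, and *Snora81*, inside the initiation factor gene *Eif4a2*, from 8.38 in BXD50 through 9.45 to 10.99 in BXD79. BXD51 was thus highest for *Snord14e*, though most other members were low there. Not all bright members varied, as *Snora52* had an SD of 0.17 and *Snord23*, inside *Nop53*, also had an SD of 0.17.

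**Figure D1:**
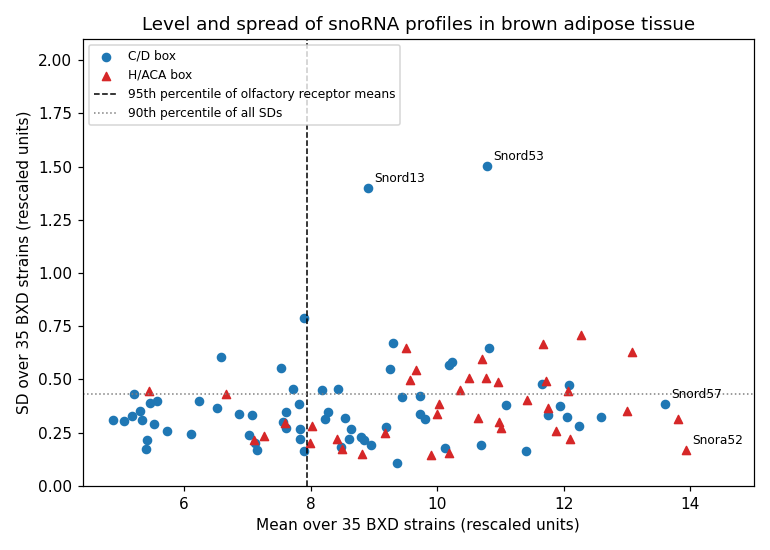
Mean and SD over 35 BXD strains, in rescaled units, for the 105 different snoRNA profiles (circles C/D, triangles H/ACA). The dashed line marks the olfactory receptor limit of 7.94 units and the dotted line the 90th percentile of all SDs, 0.43 units; *Snord53* and *Snord13* lie well above the rest in SD.

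The C/D snoRNA *Snord53*, annotated inside *Wdr43*, a gene of ribosome assembly, had the largest SD of the members, 1.5 units. It ran from 9.01 in BXD64 through a median of 9.95 to 13.21 in BXD97. The widest gap between neighbouring strains lay between 10.15 and 11.14 units, with 20 strains below it and 15 above. C57BL/6J, at 9.34, was on the low side and DBA/2J, at 11.79, on the high side. *Snord92*, which lies inside the same host, showed no such pattern (r = 0.0606 with *Snord53*), but its mean of 5.40 was within the background.

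*Snord13*, known for its part in modifying the RNA of the small ribosomal subunit, had the second largest SD, 1.40 units. It has no host gene in the RefSeq annotation. It ran from 6.59 in BXD65 through a median of 8.66 to 11.62 in BXD71, and it was above the background limit in 29 of 35 strains. The widest gap lay between 9.38 and 10.12 units, with 27 strains below and 8 above. C57BL/6J lay at 7.11, within the background, and DBA/2J at 11.48, among the highest strains.

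Differences between the parents past the 95th percentile of all probe sets, 0.77 units, were seen for 11 snoRNA probe sets (8.03%), beside 5.00% of all probe sets by construction, and for 10 of the 105 profiles. With only 1 array for a parent, none of these differences could be checked against a replicate. DBA/2J was higher for 7 of the 10 profiles and C57BL/6J for 3. The median absolute difference was 0.16 units over the 105 profiles and 0.18 over all probe sets, so the median member did not differ more between the parents than the median probe set. *Alb*, the serum albumin gene of liver, was at 13.93 in DBA/2J and 14.96 in BXD70, beside 8.76 in C57BL/6J, and what liver RNA added to the parental differences of the snoRNAs was not tested.

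Below *Snord13* and *Snord53*, with DBA/2J minus C57BL/6J at 4.38 and 2.45 units, the largest differences were those of *Snora17* and *Snora28*. For the brighter probe set of *Snora17*, an H/ACA snoRNA annotated inside the non-coding RNA gene *Snhg7*, the BXD strains ran from 11.88 in BXD45 through a median of 13.19 to 14.24 in BXD50. The parents lay at 12.46 (C57BL/6J) and 13.70 (DBA/2J), with 19 strains above their midpoint and 16 below. *Snora28*, inside the translation initiation factor gene *Eif5*, went the other way, with 11.84 in C57BL/6J and 10.58 in DBA/2J. Its BXD values ran from 10.40 in BXD66 through a median of 11.87 to 12.64 in BXD85.

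**Figure D2:**
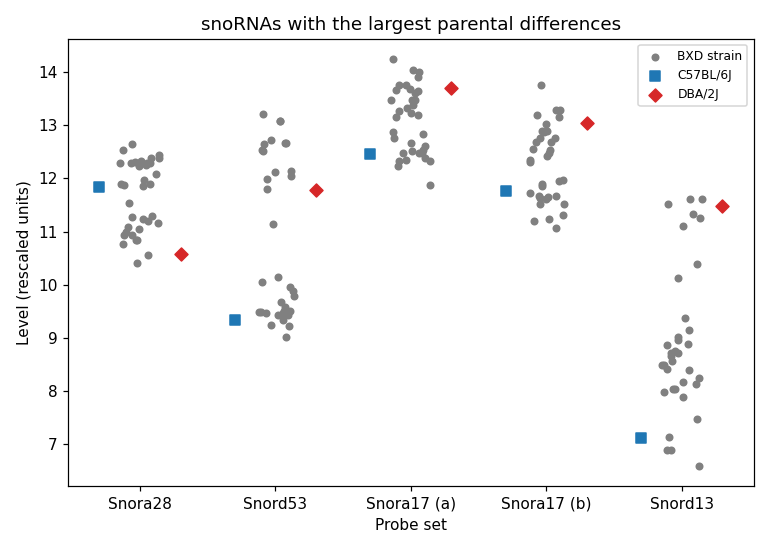
Levels in rescaled units of the *Snora28*, *Snord53*, *Snora17* (2 probe sets, a and b) and *Snord13* probe sets, with 1 grey point per BXD strain (n = 35), a square for C57BL/6J and a diamond for DBA/2J. *Snord53* is split by a gap between 10.15 and 11.14 units, and C57BL/6J lies below DBA/2J for all but *Snora28*.

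Strain order was shared among several members with a parental difference. The 2 probe sets of *Snora17* followed each other with r = 0.978 over 35 strains. *Snora16a*, inside *Snhg12*, followed the brighter of them with r = 0.916, and *Snora73a* and *Snora73b*, both inside *Snhg3* and known for a part in cutting the ribosomal RNA precursor, with r = 0.886 and 0.884. *Snora28* did not share this order (r = 0.0258 with the same *Snora17* probe set), nor did *Snord13* to the same degree (r = 0.383). For *Snord34*, *Snord53* and *Snora62*, also past the parental limit, r with that probe set was 0.293, 0.234 and 0.129. These members were chosen for their parental difference, the probe set of one may also bind related RNAs, and the strain order is given as a description.

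Across strains the snoRNAs tended to move together. Over all pairs of the 137 probe sets the mean Pearson's r was 0.213, and 79.0% of the 9316 pairs had a positive r. For the 105 profiles the mean was 0.196, so repeated probe sets made little difference. The same mean was 0.00227 over all probe sets, 0.0389 over the olfactory receptors and 0.00679 over 589 probe sets of microRNA genes. It was 0.364 over 19 probe sets with symbols starting *Rnu*. These hold only 8 different profiles, so copies raise the value, and they mix small nuclear RNAs with *Rnu3a*, *Rnu3b1* and *Rnu73b*, by their names C/D snoRNAs outside the symbol rule. The mean was 0.234 over 11 probe sets of small Cajal body RNAs, close relatives of snoRNAs that guide modification of spliceosomal RNA. All of these pairs share the same 35 arrays and are not independent.

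Both classes took part. The mean r was 0.222 among 65 C/D probe sets other than *Snord116* and 0.205 among 38 H/ACA profiles. The mean of the standardised C/D values followed that of the H/ACA values with r = 0.763 and Spearman's rho = 0.664 over 35 strains, and r = 0.707 without the 2 strains farthest from the median. The small Cajal body RNAs followed the mean of the 105 profiles with r = 0.748, the *Rnu* probe sets, these snoRNAs among them, with r = 0.582, and the microRNA genes did so with r = -0.191.

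Per member, 72 of 137 probe sets (52.6%) had r of at least 0.5 with the mean of the other members. All 31 *Snord116* probe sets are among the 72 because the other members include their own copies, and against the other profiles their r was 0.310 and 0.326. Of all probe sets other than the members, 0.873% reached 0.5 with the snoRNA mean. Among the 105 profiles, each set against the other profiles, the number was 53 (50.5%), of which 36 were C/D and 17 H/ACA, and 12 had a negative r. The block was not limited to bright members, since 37 of its 53 profiles were above background and 16 below.

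**Figure D3:**
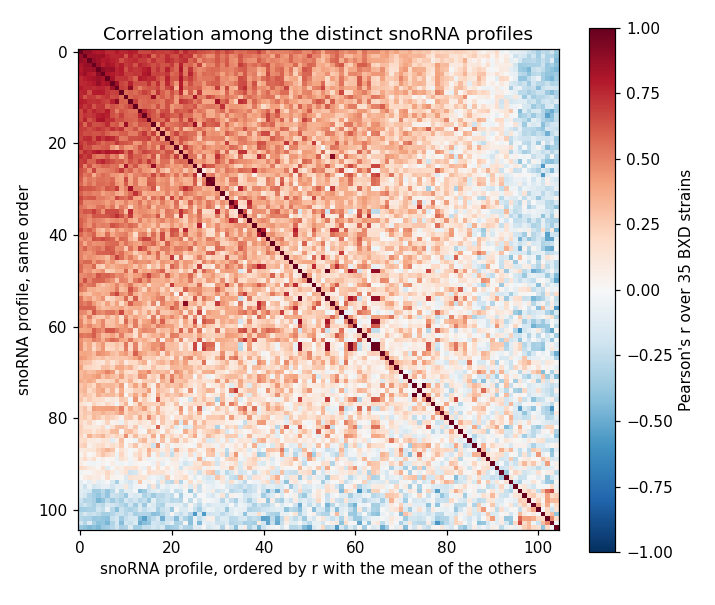
Pearson's r over 35 BXD strains between each pair of the 105 different snoRNA profiles, ordered by r with the mean of the others (red positive, blue negative). Most pairs are positive, and the last profiles of the order, among them those with a negative r, turn away from the first.

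The members closest to the rest were *Snord15b* (r = 0.831 with the mean of the others), *Snord34* (0.808), *Snord47* (0.804), *Snora30* (0.785) and *Snord68* (0.779). That mean counts each *Snord116* copy, and against the other profiles the highest were *Snord15b* (0.948), *Snord34* (0.884), *Snord49a* (0.870), *Snord82* (0.852) and *Snord47* (0.849). *Snord15b*, inside the ribosomal protein gene *Rps3*, ran from 8.81 in BXD95 through a median of 9.74 to 10.66 in BXD85. *Snord47*, inside the non-coding RNA gene *Gas5*, ran from 7.66 in BXD62 through 9.30 to 10.52 in BXD97. *Snora30*, inside the chromatin remodeller gene *Srcap*, ran from 8.98 in BXD64 through 10.02 to 10.71 in BXD83. The low strains of these members, BXD95, BXD62 and BXD64, were also among the lowest for the snoRNA mean. The members were chosen for their r with the others, so this is no separate result. *Snord34*, inside *Rpl13a*, and *Snord68*, inside *Rpl13*, had means of 7.53 and 7.90, below the background limit.

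The 5 members with the lowest r with the mean of the others were *Snord8* (r = -0.376), *Snora52* (-0.348), *Snord23* (-0.336), *Snord88c* (-0.290) and *Snora5c* (-0.274). All 5 were above background in each strain, with SDs between 0.15 and 0.19 units. Against the other profiles the lowest were *Snora52* (-0.358), *Snord8* (-0.332), *Snord23* (-0.322), *Snord88c* (-0.311) and *Snord7* (-0.291), the last of them with a mean within background. *Snord8* ran from 10.35 in BXD99 through a median of 10.68 to 11.11 in BXD62, so BXD62, a low strain for *Snord47*, was its highest. *Snord23*, *Snord88c* and *Snora5c* were each lowest in BXD83, which was the highest strain for the mean of the standardised values of all 137 probe sets. As these members were chosen for their low r with the others, their opposite strain order is no separate result.

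By strain, BXD85 had 91 of 105 profiles above their own mean over strains, BXD98 had 90 and BXD83 had 86. At the other end, BXD45 had 19, BXD51 had 23, and BXD64 and BXD95 had 24 each. The plain mean level of the 105 profiles ran from 8.72 in BXD64 through a median of 9.07 to 9.46 in BXD85. C57BL/6J lay at 8.78 and DBA/2J at 8.87, both in the lower part of the BXD range, with 21 and 22 of the 105 profiles above the BXD mean. In bulk tissue, fewer cells of a type and less RNA per cell cannot be told apart.

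BXD65 stood apart for *Snord116*. The *Snord116* profile of 16 probe sets ran from 9.19 in BXD62 through a median of 10.12 to 12.40 in BXD65, with the next strain at 11.07. *Snord116* is best known from neurons, and among 7 neuron markers the synaptic gene *Snap25*, below background on average, was also highest in BXD65, at 10.90 against a median of 7.31 and a next value of 8.68. *Syt1*, the calcium sensor of synaptic vesicles, was at 9.65 there, against a median of 8.11. The mean of the neuron list was 8.34 in BXD65 and at most 7.68 in other strains. Its most abundant gene was *Stmn2*, and 3 of the 7 were above background on average. *Nefm* and *Tubb3* were below the limit in BXD65 too, at 6.79 and 6.91.

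Over 35 strains *Snord116* followed the neuron list with r = 0.538 and rho = -0.137, and without BXD65 r was -0.0343, so the relation rests on that strain. BXD65 also had the lowest mean of the skeletal muscle list, 9.66 against a median of 12.42, whose most abundant gene was *Acta1*, and of the blood list, 8.96 against a median of 9.95, whose most abundant gene was the globin gene *Hba-a2*. The part of neuron, muscle or blood RNA in the *Snord116* value of BXD65 was not tested. Without BXD65 the mean pairwise r of the members was 0.238.

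The first principal component of the other 41018 probe sets held 9.00% of their variance. It was signed to correlate positively with the olfactory receptor mean (r = 0.289). The mean of the standardised snoRNA values followed it with r = 0.421 (jackknife SE 0.229) and rho = 0.424 over 35 strains, and with r = 0.360 without BXD66 and BXD85, the strains farthest from its median. The component followed the array median with r = -0.861, and the snoRNA mean did so with r = -0.482. The part of the arrays' distribution in the snoRNA mean was not tested. When the component was removed by regression the mean pairwise r of the members was 0.191, so most of the shared movement did not lie along it.

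The relation depended on which probe sets made up the component. With the same probe sets scaled to unit variance, the first component followed the snoRNA mean with r = 0.486. With the 19336 other probe sets above background, the first component followed the snoRNA mean with r = -0.0359. That component followed the skeletal muscle list with r = -0.899 and the component of all probe sets with r = 0.530. The third component of these brighter probe sets was the one nearest to the snoRNA mean among the first 5 (absolute r = 0.626).

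**Figure D4:**
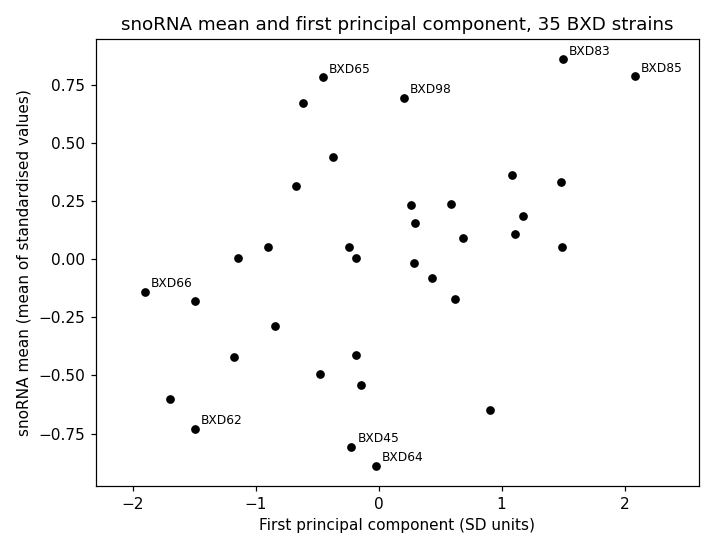
Mean of the standardised values of the 137 snoRNA probe sets against the first principal component of all other probe sets (in SD units), with 1 point per BXD strain (n = 35). BXD83 and BXD85 are high on both axes, while BXD64 and BXD45 are lowest in the snoRNA mean near the middle of the component (r = 0.421).

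In limma across all probe sets, with Benjamini-Hochberg adjustment and an adjusted p threshold of 0.05, 18 snoRNA probe sets (13.1%) rose along the component, beside 6.70% of all probe sets, and 3 (2.19%) fell, beside 10.5% of all probe sets. The number of rising members depended on single strains. It was 9 without BXD83 (6.57%, beside 4.93% of all) and 10 without BXD51 or without BXD103 (7.30%, beside 5.22% and 5.51%). A positive coefficient was found for 119 of 137 members, 87 of 105 profiles (82.9%) and 45.9% of all probe sets. Those that rose were 13 C/D and 5 H/ACA probe sets, and among the 105 profiles 17 rose and 3 fell. Of the 37 members below background 10 rose (27%, beside 4.79% of all probe sets below it) and 0 fell, beside 11.2%. Of the 100 above background 8 rose, beside 8.83% of all probe sets above it, and 3 fell, beside 9.66%. These 100 include the 31 *Snord116* probe sets, of which 0 rose and 0 fell. Among the 69 profiles above background 7 rose (10.1%) and 3 fell (4.35%). Among the 36 profiles below it 10 rose (27.8%) and 0 fell, so the larger share of rises came from members within background. With the arrays centred on their median, 25 members rose (18.2%, beside 11.6% of all probe sets) and 3 fell (2.19%, beside 5.48%), while the share of calls that were rises went from 39.0% to 67.9% over all probe sets and from 85.7% to 89.3% over the members. Of the olfactory receptors, 51 of 1128 rose and 33 fell.

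The largest rises in limma, per SD of the component, were those of *Snord68* at 0.41 ± 0.11 units (SE; adjusted p = 0.0118), *Snord47* at 0.35 ± 0.09 (adjusted p = 0.0105), *Snord61* at 0.33 ± 0.08 (adjusted p = 0.00749), *Snord87* at 0.31 ± 0.08 (adjusted p = 0.00598) and *Snora70* at 0.28 ± 0.06 (adjusted p = 0.00190). *Snord61*, inside the splicing factor gene *Rbmx*, and *Snora70*, inside *Rpl10*, were within the background in each strain. *Snord87*, inside the non-coding RNA gene *Snhg6*, ran from 8.19 in BXD64 through a median of 9.25 to 10.28 in BXD85. The 3 that fell in limma were *Snord8* (coefficient -0.119, adjusted p = 0.00309), *Snord23* (-0.0968, adjusted p = 0.00688) and *Snora61* (-0.0949, adjusted p = 0.0118). At an adjusted p of 0.01, *Snord68*, *Snord47* and *Snora61* did not pass. *Snord8* and *Snord23* were also among the 5 members with the lowest r with the others.

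Host genes were taken from the RefSeq annotation of GRCm38.p6 as the shortest protein-coding or long non-coding gene that contains the snoRNA, without regard to strand. Of 97 symbols found in it, 94 lie inside such a gene and 3 do not, namely *Snord13*, *Snord89* and *Snord118*, and *Snora22*, *Snora55* and *Snord116* were not matched. For 85 snoRNAs the host, 64 genes in all, also had a probe set. Pearson's r between snoRNA and host was at least 0.5 for 5 of 85 pairs (5.88%), beside 3.38% of the pairs of these snoRNAs with the hosts of others, and its median was 0.191 beside 0.0907. It was negative for 21 pairs. A snoRNA probe set thus rarely followed its host's probe set over these strains.

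The 5 pairs were *Snord47* with *Gas5* (r = 0.635), *Snord15b* with *Rps3* (0.617), *Snord19* with the nucleolar GTPase gene *Gnl3* (0.610), *Snora33* with *Rps12* (0.596) and *Snora19* with the initiation factor gene *Eif3a* (0.50). In 3 of them, those of *Snord47*, *Snord19* and *Snora19*, the host or the snoRNA lay below background. At the other end, *Snora30* and *Srcap* gave r = -0.395. *Snord53*, the member with the largest SD, followed *Wdr43* with r = 0.114. The mean of the standardised values of all 64 hosts followed the mean of the 105 profiles with r = 0.654 and rho = 0.685, and with r = 0.705 without the 2 farthest strains.

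Members of the same host were compared with each other. Over 31 pairs that share a host the mean r was 0.375 and 10 pairs (32.3%) reached 0.5, against 0.190 and 13.9% over 4031 pairs on different chromosomes. Over 309 pairs on the same chromosome with other hosts they were 0.178 and 16.8%. The 31 pairs include members with related names, such as *Snora73a* and *Snora73b* (r = 0.980). What probes that bind both of a pair added was not tested. The 4 snoRNAs of *Rpl13a* all correlated positively, from r = 0.281 for *Snord33* and *Snord34* to 0.747 for *Snord32a* and *Snord34*. The 3 of the non-coding gene *2410006H16Rik* did so too, from 0.406 for *Snord49a* and *Snord65* to 0.732 for *Snord49a* and *Snord49b*. The 4 of *Snhg12* did not. *Snord99*, its only C/D member, had r between -0.210 and -0.188 with *Snora16a*, *Snora44* and *Snora61*, which had r between 0.102 and 0.372 with one another.

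The proteins of the snoRNA particles were set beside the block. All 4 C/D core proteins found on the array, *Fbl*, *Nop56*, *Nop58* and *Nhp2l1*, were above background, and their mean followed that of the 105 profiles with r = 0.472 and rho = 0.528. For the 4 H/ACA core proteins, *Dkc1*, *Nop10*, *Nhp2* and *Gar1*, r was 0.104, but the single genes differed. They ran from -0.206 (*Dkc1*) to 0.443 (*Gar1*), while the C/D genes ran from 0.155 (*Fbl*) to 0.395 (*Nop58*). In limma 0 of 4 and 0 of 4 passed the threshold against the component. Of 12 factors of snoRNA particle assembly and maturation, 2 rose (*Shq1*, a chaperone of dyskerin, and *Tgs1*, which modifies RNA caps) and 0 fell. Of 15 genes found from the list of non-coding host genes, 2 rose (*Gas5* and *Snhg3*) and 1 fell (*Meg3*), beside 6.70% and 10.5% of all probe sets. *Gas5* had a mean of 6.64, below background, and *Meg3* was not the annotated host of any matched member. The mean of the brown fat list followed that of the 105 profiles with r = -0.359, the white fat list with 0.0449, the skeletal muscle list with 0.123, the liver list with 0.0221, the blood list with 0.149, the lymphocyte list with -0.148 and the neuron list with -0.226.

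The 10 named probe sets whose symbol does not start with *Snord* or *Snora*, with a mean above background and the highest r with the snoRNA mean were led by *Ppan* (r = 0.774), a gene of ribosome assembly, and *Rny1* (0.757), a small non-coding Y RNA. They also held *Ptcd3* (0.727), a mitochondrial ribosome gene, the ribosomal protein genes *Rpl5* (0.724) and *Rpl10* (0.716), the elongation factor gene *Eef1a1* (0.703), the 5S ribosomal RNA *Rn5s* (0.689) and *Rnu73b* (0.684), a C/D snoRNA outside the symbol rule. *Sirt6*, a deacetylase gene, and *Zfp781* (both 0.748) had the same values on all arrays and are uncertain. For *Rpl10* and *Eef1a1* this was not their brightest probe set. In the RefSeq annotation 4 of the 10, *Ppan*, *Ptcd3*, *Rpl5* and *Rpl10*, contain a snoRNA gene, as do 1.76% of 20061 protein-coding and long non-coding genes with a probe set. The 2 sets are unlike, since the 20061 genes were taken at any level and the 10 hold only bright probe sets, some of other RNA kinds.

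In the RefSeq annotation of GRCm38.p6, 4 of the 97 matched snoRNAs overlap a microRNA gene. They are shown because their probe sets may measure a precursor that both share, and the microRNA hairpins give the bases that overlap the snoRNA in position. Whether both lie on the same strand was not checked. None of the 4 microRNA genes has a probe set under its own symbol. *Snora34*, with *Mir1291*, had a mean of 11.42 units and *Snord33*, with *Mir5121*, of 10.13, and both were above background in all 35 strains. *Snora36b*, with *Mir664*, had a mean of 6.66 and *Snora19*, with *Mir3084-2*, of 7.11, and both were within background in all strains. The hairpins run 5′ to 3′ on the strand of the microRNA, which is the minus strand except for *Mir664*, and capitals mark the bases inside the annotated snoRNA.
Mir1291 and Snora34: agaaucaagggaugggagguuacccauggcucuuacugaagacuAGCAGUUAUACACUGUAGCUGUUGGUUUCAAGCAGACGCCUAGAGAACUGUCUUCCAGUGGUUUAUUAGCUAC
Mir5121 and Snord33: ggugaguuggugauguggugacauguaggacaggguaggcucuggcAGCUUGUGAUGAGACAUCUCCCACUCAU
Mir664 and Snora36b: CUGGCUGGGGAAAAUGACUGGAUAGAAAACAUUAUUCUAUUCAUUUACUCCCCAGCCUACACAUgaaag
Mir3084-2 and Snora19: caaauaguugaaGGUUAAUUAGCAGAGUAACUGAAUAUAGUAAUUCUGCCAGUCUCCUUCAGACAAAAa

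The shared stretch was 73 bases for *Snora34*, 28 for *Snord33*, 64 for *Snora36b* and 56 for *Snora19*. In *Snora19* it covers the whole annotated snoRNA of 56 bases. The mature microRNA of *Mir5121*, both of *Mir664* and the 3p form of *Mir3084-2* lie entirely inside the snoRNA. Whether the probes lie in the shared bases was not tested.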

How the data were processed

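Total RNA was measured on 37 arrays, 1 per strain. The authors deposited 1 table of 41345 probe sets whose values are scores, brought by the authors to mean 8 and SD 2 on each array; the submitters' processing notes name Affymetrix Expression Console, with no version. The 190 array controls were left out, and 0 value columns were unused. All tests used the scores as they are; the summary method and log base are not given in the sources used here. Members and lists were chosen with earlier results of these data known.

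Python 3.11.15, numpy 2.4.6, scipy 1.17.1 and pandas 2.3.3 gave means, correlations and components, and matplotlib 3.10.9 the figures. limma 3.58.1 (lmFit, eBayes) in R 4.3.3 used the component, computed without the members, as a covariate, with Benjamini-Hochberg adjustment over 41155 probe sets and a threshold of 0.05. The steps were tested on simulated data. Genes with more than 1 probe set are represented by the brightest. The planned strand check of hosts was not run, since the table of genes used holds no strand. No p is given for means over members.

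Named members are the 10 highest means and SDs, the 5 highest and lowest r with the others, the 5 largest limma coefficients past the threshold in each direction, the 5 largest parental differences and the members of the 3 hosts with most members, with identical profiles counted once. Other named genes come from the lists, are hosts of named members or are the 10 most similar probe sets. *Snord116*, *Snora21*, *Snord7*, *Snord92*, *Snord19*, *Snora19*, *Snora36b*, *Snora34*, *Snora62*, *Snora73a* and *Snora73b* were named after their values were seen. So were *Rnu3a* and *Rnu3b1*, and the members without a host or match by the annotation. Alternatives were both parents, quantile normalization, median centring, Spearman's rho, other limits and components, removal of the muscle list by regression, and strains left out.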

Additional observations from a re-analysis of the deposited data

How the results depend on the processing

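Chosen after seeing the data were 1 probe set per distinct profile, removal of *Snord116* and single strains left out of limma. The number above background (100) was 86 at the 99th percentile of the olfactory receptors. The number with an SD past the 90th percentile (61) was 31 with 1 probe set per profile, which by construction counts fewer. The mean pairwise r (0.213) was 0.261 for members above background, which include all *Snord116* copies. Over the 105 profiles it was 0.196, and over the 69 profiles above background 0.220. For all members it was between 0.200 and 0.238 without single strains. The number with r of at least 0.5 (72) ranged from 65 to 75 without single strains. The r with the first component (0.421) was -0.0359 when the component was made of probe sets above background. It was 0.486 with probe sets scaled to unit variance, and from 0.321 to 0.501 without single strains. The number of host pairs (5) was 2 with both members above background, which leaves fewer pairs. The cause was not tested for the others.

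In limma 21 members followed the component, 18 rising and 3 falling. At an adjusted p of 0.01 the count was 9, with 7 rising (5.11% beside 2.27% of all) and 2 falling (1.46% beside 3.86%). With only probe sets above background tested the count was 11. Of these, 8 rose (8% of members, beside 9.74% of all) and 3 fell (3%, beside 10.4%). By profile, 7 of the 69 above background rose (10.1%) and 3 fell (4.35%). Without BXD66 and BXD85, 11 rose (8.03%, beside 4.14% of all) and 3 fell (2.19%, beside 6.45%). Against the component of probe sets scaled to unit variance, 27 rose (19.7%, beside 7.84% of all) and 3 fell (2.19%, beside 12.1%). Without single strains the count was 11 to 26, with 9 to 23 rising and 2 to 3 falling. It was 13 without BXD51, 11 without BXD83 and 13 without BXD103, with 10, 9 and 10 rising (7.30%, 6.57% and 7.30%, beside 5.22%, 4.93% and 5.51% of all), against 13.1% beside 6.70% with all strains. The parental count (11) was 10 to 11 under the other scalings. For single named members, 1652 values were recomputed under the alternatives: 14 lost and 38 gained a limma call, 0 turned, and the 1600 others held their call or, for levels and parental differences, stayed within the SD over strains. Signal over background is the limit for the levels of 37 members.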
